A study of Mus musculus with 6 samples.

Results

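The 10 genes described here are *Bcl6*, *Ascl2*, *Maf*, *Pou2af1*, *Tox2*, *Cxcr5*, *Pdcd1*, *Icos*, *Cd200* and *Il21*, which define T follicular helper (Tfh) cells or carry out their help to B cells. They were chosen by gene symbol, and all 10 were found among the 14744 gene symbols of the table. RNA was sequenced from Tfh cells that had been sorted from mesenteric lymph nodes (MLNs) as CD4+B220-CD44+PD-1+CXCR5+, with 10000 to 30000 cells taken, in 3 WT libraries and 3 libraries labelled Bach2-cKO. The libraries are labelled C57BL/6, and the mice were on a C57BL/6J background and 2 to 3 months old. The WT mice were *Cd4*-Cre littermates. The other mice were Bach2fl/fl Cd4-cre, so that Cre driven by *Cd4* acts in every T cell that has expressed *Cd4* and not in Tfh cells alone. Nothing in the labels says that each library came from a separate animal, and p-values therefore measure the spread between these libraries.

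Tfh cells move into the B cell follicle and support germinal centers, where B cells mutate and select their antibodies. BCL6 is the transcription factor that the lineage requires, and ASCL2, c-MAF and TOX2 act with it to install the follicular program. CXCR5 draws the cells toward the follicle, ICOS and PD-1 receive signals from B cells and dendritic cells there, and IL-21 is a main cytokine that the cells give to B cells. BACH2 is a transcriptional repressor that restrains effector differentiation of T cells.

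The deleted gene was examined first. *Bach2* (chr4:32238804-32586108, plus strand, GRCm38) was at 233, 222 and 105 normalized counts in WT replicates 1, 2 and 3 and at 399, 763 and 591 in replicates 1, 2 and 3 labelled Bach2-cKO. Each library with the deletion on its label had more *Bach2* than each WT library, which goes against the label, and every direction given here rests on the labels. A count per gene does not separate the deleted exons from the others, and *Bach2it1* and *Bach2os* overlap the gene. For these reasons the group is written as labelled throughout. In the libraries labelled Bach2-cKO, *Il4* was higher (log2 fold change 1.35) and *Foxp3* lower (-1.76), both without overlap. By flow cytometry, the paper reports a larger share of IL-4-secreting Tfh cells in the deleted mice. It also reports a lower ratio of Foxp3+ to Foxp3- follicular T cells in them. Whether the labels are right was not tested.

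A pair of libraries stood apart. In WT replicate 1 reads were found for 11648 genes, while the remaining 5 libraries held 13111 to 13567, and 625 of the genes tested below were at 0 in it, where the remaining libraries had 18 to 78. When limma estimated a weight for each library, it gave this one 0.206, the lowest of the 6. WT replicates 2 and 3 had 1.04 and 2.51, and replicates 1, 2 and 3 labelled Bach2-cKO had 0.791, 5.54 and 0.421. The weighted fit thus rests mostly on WT replicate 3 and replicate 2 labelled Bach2-cKO. Replicate 3 labelled Bach2-cKO correlated slightly more with WT replicates 2 and 3 than with either other library of its own label. Across 11296 genes, which are not independent and share each library's depth, Pearson's r of its log2 values was 0.940 and 0.941 with WT replicates 2 and 3, 0.854 with WT replicate 1, and 0.914 and 0.931 with replicates 1 and 2 of its own label. Each of these libraries was left out in turn. The deposited values are read counts per gene divided by a size factor of each library, and they sum to between 7361229 and 8135325 normalized counts. Depth was 7737531 reads in WT replicate 1, if its smallest value is 1 read, and 6585742 and 7823717 in WT replicates 2 and 3. The replicates labelled Bach2-cKO had 5045131, 10987752 and 7197242. The members were well covered in the 5 libraries whose reads could be recovered, with 286 (*Pou2af1*) to 7503 (*Maf*) reads for a member in a library and a counting error of 5.91% to 1.15%.

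The sorted identity was checked against marker genes. All 10 T cell markers were present, and their summed level was 66251, 70915 and 89292 normalized counts in the WT libraries and 64349.8, 61646 and 68258 in those labelled Bach2-cKO, with *Cd3d* the most abundant. Of 9 B cell markers, which the B220- gate should leave out, the sums were 289, 884 and 656 and 513, 489 and 381, and *Cd79b* led them. Plasma cell genes differed widely between libraries of the same label, with sums of 316, 28955 and 6997 and of 2105, 501 and 518 over 4 genes, nearly all of it *Jchain*. Sums of the 8 myeloid and dendritic cell genes were 2407, 8315 and 4212 and 2164, 5650.5 and 1852, led by *Lyz2*. The 6 genes of CD8 T and NK cells gave 5819, 4544 and 3396 and 1587, 4616 and 2325, led by *Nkg7*. Stromal and endothelial genes gave 450.2, 549 and 529 and 589.7, 515 and 466 over 6 genes, led by *Pecam1*, which T cells also express. Naive T cell genes gave 3447, 3472 and 2113 and 1876, 2136 and 2692 over 4 genes, with *Lef1* on top. Some single markers separated the groups where the sums did not, although 0 passed the adjusted threshold in limma. Over all genes tested, 14.6% were higher and 12.2% lower without overlap. By an unadjusted p under 0.05 in limma, 10.1% were higher and 10.2% lower. At an unadjusted p under 0.05 in limma, 3 T cell genes were higher (*Thy1*, *Cd4*, *Cd44*) and 2 lower (*Cd3e*, *Cd2*). *Cd3e* was at 10623, 9648 and 11924 against 4534, 5238 and 6139.8 and *Thy1* at 1039, 1283 and 1194 against 3622, 2631 and 1825, both without overlap. The products of *Cd4* and *Cd44* belong to the sort gate. *Cd4* was at 2500, 2407 and 2792 against 4131, 3341 and 3349, without overlap. *Cd44* was at 1090, 1776 and 1741 against 3856, 2615 and 2313, also without overlap, while *Cd2* overlapped. Of the naive genes 2 were lower at an unadjusted p under 0.05 in limma, *Ccr7* and *Dapl1*, the latter at 249, 316 and 107 against 8.87, 28.8 and 19.4 without overlap. In the B cell, myeloid and CD8 T and NK lists 1 gene each was lower by that rule, *Ms4a1* (35.3, 33.7 and 45.8 against 2.96, 2.68 and 10.2), *Cd68* (347, 419.5 and 318 against 133, 339 and 138) and *Nkg7* (5536, 2907 and 2633 against 962, 2417 and 1432), of which the first and the last were without overlap. The part of these markers in the results on the members was not tested. In none of these lists was a gene at 0 in all 6 libraries, and in none were the sums of the groups without overlap.

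The gate takes no account of Foxp3, so follicular regulatory T (Tfr) cells can be in it. The 5 Treg and Tfr genes summed to 5949, 6160.4 and 7887 in WT and to 6389, 5309 and 4643 in the libraries labelled Bach2-cKO, with *Ikzf2* the most abundant. All 5 were lower on average, and 3 of them had an unadjusted p under 0.05 in limma, where 10.2% of all genes tested were lower by that rule. *Foxp3* was at 222, 315 and 344 and at 47.3, 140.0 and 91.0, without overlap. Tfr cells carry many of the same surface genes as Tfh cells, and the part of these values in the results on the members was not tested. Fewer cells of a type and less RNA per cell cannot be told apart in sorted bulk libraries.

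*Tox2* and *Bcl6* were higher and *Icos* was lower in every library labelled Bach2-cKO than in every WT library, and the groups overlapped for the other 7 genes. Differences were tested with limma on log2(normalized count + 1), a scale on which the change of low genes is understated, over the 11296 genes that reached a value of 10 in 3 or more libraries. All 10 members passed that filter. With an adjusted p under 0.01 and a fold above 2 both required, limma called 0 members, and 0% of all genes tested. The count was also 0 members, and 0% of all genes, at an adjusted p under 0.05. At an unadjusted p under 0.05, 2 members were higher (*Bcl6*, *Tox2*), where 10.1% of all genes were higher by that rule, and 1 was lower (*Icos*), where 10.2% were lower. The same 3 genes were those whose groups did not overlap, which held for 14.6% of all genes in the higher direction and 12.2% in the lower. These shares would give 1 or 2 of 10 genes in a direction, so the members' counts of 2 and 1 were near the background. A fold above 2 on the limma scale was seen for *Tox2* upward and *Icos* downward, against 13.3% and 6.83% of all genes. An exact permutation test of 3 libraries against 3 cannot give a 2-sided p below 0.1.

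Other tools gave other counts. On the reads recovered from 5 libraries, all but WT replicate 1, edgeR called 0 genes and DESeq2 called *Icos* alone of the members. DESeq2 called 0.292% of 11295 genes higher and 0.505% lower. With a weight estimated for each library, limma called 4.97% higher and 5.02% lower, and *Icos* again was the member called. That fit rests mostly on 1 library of each label, as given above. At an unadjusted p under 0.05 limma gave 2301 genes with all 6 libraries and 2171 without WT replicate 1, and on these same 5 libraries edgeR gave 2070 and DESeq2 2158. Without WT replicate 1, 9.79% of genes were higher and 9.43% lower at an unadjusted p under 0.05, and *Il21* joined *Icos* among the lower members. Without replicate 3 labelled Bach2-cKO the shares were 13.1% and 14%, *Maf* joined the higher members, and *Icos* was the 1 member among 507 genes under an adjusted p of 0.05 in limma. That rule took 4.49% of all genes there. With the weights it took 36.9% of all genes and 5 of the 10 members (*Bcl6*, *Tox2*, *Pdcd1*, *Icos*, *Il21*), a share not far from the background. The other 4 libraries were left out too. At an unadjusted p under 0.05 in either direction, 9.51% of genes and *Tox2*, *Icos* and *Il21* were counted without replicate 1 labelled Bach2-cKO, and 10.7% and *Tox2* and *Icos* without replicate 2. Without WT replicate 2 it was 22.3% of genes and the same 2 members, so *Bcl6* was lost in each of these 3 fits. Without WT replicate 3 it was 16.7% of genes with *Bcl6*, *Tox2* and *Icos*.

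**Figure D1:**
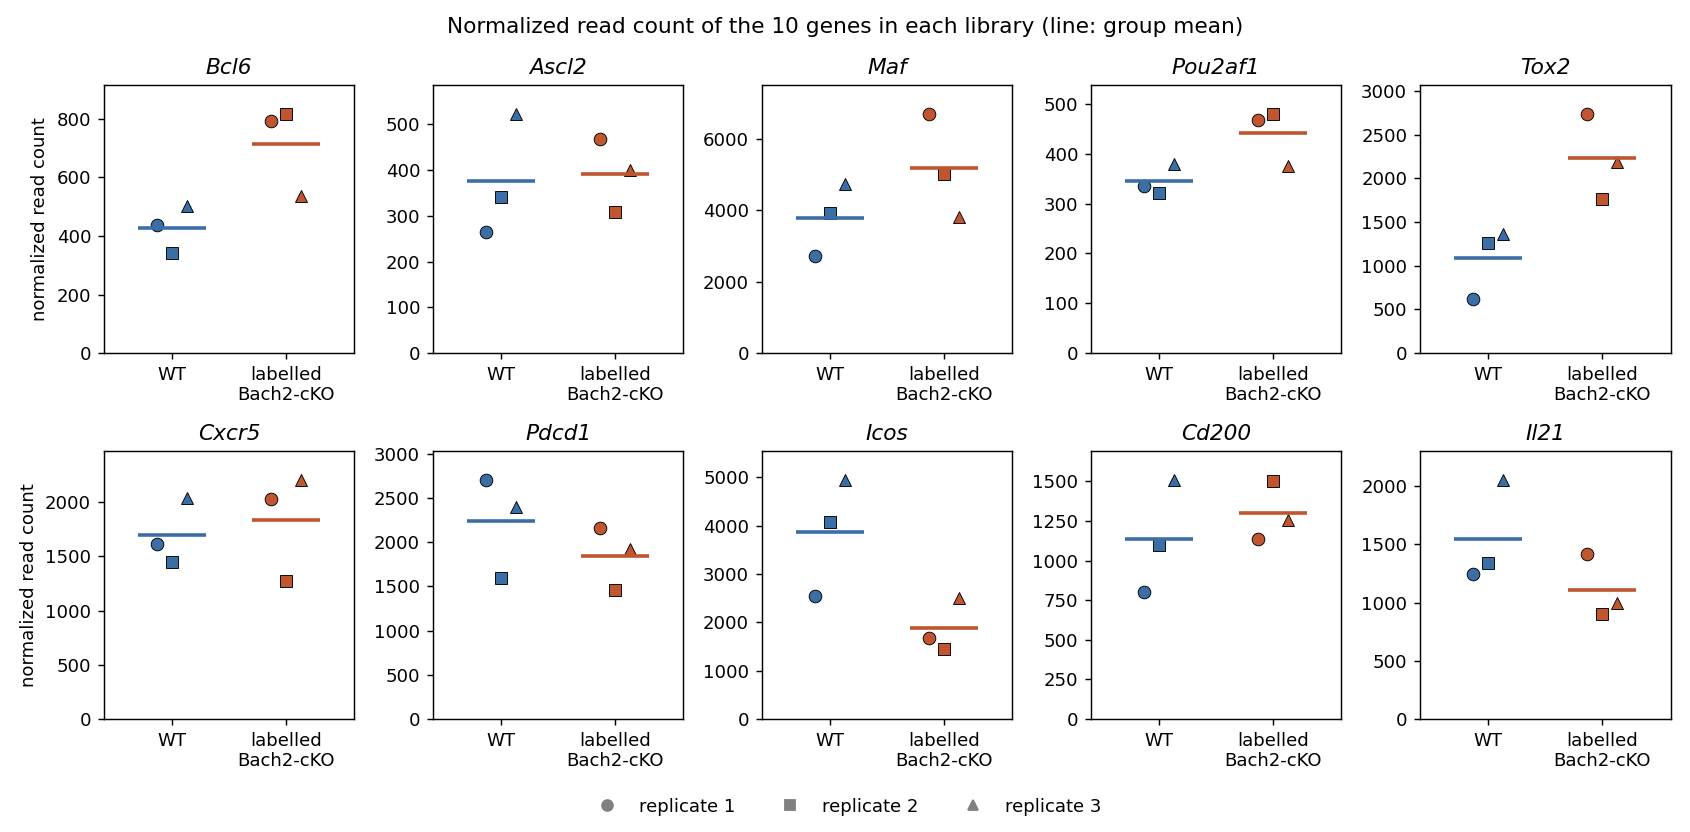
Normalized read count of each of the 10 genes (vertical axes, each from 0) in the 3 WT libraries (blue) and the 3 libraries labelled Bach2-cKO (orange), with replicates told apart by shape and group means as lines. *Bcl6* and *Tox2* lie higher and *Icos* lower in the libraries labelled Bach2-cKO without overlap, and the other 7 genes overlap.

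*Bcl6*, the lineage-defining repressor, lies at chr16:23965052-23988852 on the minus strand. It was at 436, 342 and 501 normalized counts in WT replicates 1, 2 and 3 and at 792, 818 and 537 in the replicates labelled Bach2-cKO. The groups were separate by a narrow gap, since the highest WT library and replicate 3 labelled Bach2-cKO lay close together while the other 2 labelled replicates were well above. The means were 426 ± 80.0 (SD, n = 3) and 716 ± 155 (SD, n = 3), and the log2 fold change was 0.74 (limma adjusted p = 0.173, 95% confidence interval 0.16 to 1.31, standard error 0.26). It was 0.76 without WT replicate 1 and 0.93 without replicate 3 labelled Bach2-cKO, where limma gave an adjusted p of 0.0644, within a range of 0.00324 to 0.535 over all alternatives. Without WT replicate 2 it was 0.59, and without replicates 1 and 2 labelled Bach2-cKO 0.65 and 0.63, and in these 3 of 6 fits the unadjusted p was above 0.05. A gene on the other strand overlaps *Bcl6*, and the counting strand is not given in the sources used here.

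*Tox2*, which encodes an HMG-box protein that supports Tfh development, lies at chr2:163203125-163324170 on the plus strand. Its values were 624, 1259.7 and 1365 in WT and 2739, 1759 and 2189.8 in the libraries labelled Bach2-cKO. WT replicate 1 was far under the other WT libraries, and every labelled library was above every WT library. From 1083 ± 401 (SD, n = 3) to 2229 ± 491 (SD, n = 3), the log2 fold change was 1.10 (limma adjusted p = 0.146, 95% confidence interval 0.42 to 1.78, standard error 0.31). The size rested in part on WT replicate 1, and without it the value was 0.74, still without overlap, while it was 1.10 without replicate 3 labelled Bach2-cKO. DESeq2 on 5 libraries gave 0.73 with an adjusted p of 0.0852, within a range of 0.0244 to 0.507 over the alternatives, and library weights gave 0.55, both under 2-fold.

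Transcription of *Bcl6* and *Tox2* starts at promoters that can be read directly. RefSeq promoters (GRCm38.p6, 250 bases before to 50 after the start) were matched by symbol for 7 members, 12 promoters in all. They were searched on both strands for the core that BACH and AP-1 dimers share (TGANTCA), for the flank of Maf recognition elements (TGCTGA), whose last 3 letters are the first 3 of that core, for the octamer (ATGCAAAT) read by the POU partners of the *Pou2af1* product, and for the TATA box (TATAAA). The core and the octamer were found in 0 of the 12 promoters, against 7.81% and 1.74% of 32817 mouse promoters of the same length. Promoters of *Maf*, *Cxcr5* and *Icos* were not among the 12 and were not searched, so these counts say nothing about them. The Maf flank was in 4 of the 12, from 3 genes (*Pou2af1*, *Tox2*, *Il21*), against 19.5% of all, and the TATA box in 2, both of *Tox2*, which share nearly all their bases, against 13.6%. The same 2 *Tox2* promoters held its Maf flank. Its other promoters, among them the one at the start of the gene, had no match. Among 13694 promoters of genes in the table the shares were lower, at 5.32% for the core, 1.36% for the octamer, 16.1% for the Maf flank and 7.81% for the TATA box. These are matches of letters, and binding was not measured. The first of the 2 *Bcl6* promoters (chr16:23988803-23989102, minus strand), which has no match, and a downstream *Tox2* promoter (chr2:163225203-163225502, plus strand), which has a TATA box and the Maf flank, are shown because these genes were higher without overlap, with matches in capitals.
*Bcl6* promoter: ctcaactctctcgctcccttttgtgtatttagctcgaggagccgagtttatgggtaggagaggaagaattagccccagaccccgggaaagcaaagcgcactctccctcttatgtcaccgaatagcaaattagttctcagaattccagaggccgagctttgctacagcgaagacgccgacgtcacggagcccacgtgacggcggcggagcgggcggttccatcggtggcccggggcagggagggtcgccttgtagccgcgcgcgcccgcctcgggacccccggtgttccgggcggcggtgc
*Tox2* promoter: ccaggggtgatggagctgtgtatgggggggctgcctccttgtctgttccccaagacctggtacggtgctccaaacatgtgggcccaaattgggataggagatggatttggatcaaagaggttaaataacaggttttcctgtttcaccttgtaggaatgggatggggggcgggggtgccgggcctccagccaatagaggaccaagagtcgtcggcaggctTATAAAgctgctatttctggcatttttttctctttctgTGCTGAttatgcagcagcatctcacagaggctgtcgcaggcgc
The *Tox2* match to the TATA box begins 31 bases before the start site, and the Maf flank begins at base 8 after it.

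*Maf*, whose product c-MAF drives *Il21* and *Il4* transcription in T cells, lies at chr8:115682942-115707794 on the minus strand. It was at 2707, 3918 and 4744 in WT and at 6707, 5027 and 3824 in the libraries labelled Bach2-cKO. Replicates 1 and 2 with that label were above all WT libraries, and replicate 3 was below WT replicates 2 and 3. Its log2 fold change of 0.45 (limma adjusted p = 0.347, standard error 0.27) was 0.23 without WT replicate 1, 0.65 without replicate 3 labelled Bach2-cKO and 0.13 once a trend in transcript length and GC content was taken off each library. An antisense gene overlaps *Maf*.

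*Pou2af1* (chr9:51213708-51240080, plus strand) encodes OCA-B, a coactivator of octamer-binding factors that is best known from B cells. Its 3 WT values were 336, 321 and 378 and the others 469, 480.4 and 375. Replicates 1 and 2 labelled Bach2-cKO were higher than WT, and replicate 3 lay just under the highest WT library, so the groups overlapped. The log2 fold change was 0.35 with a standard error of 0.24 (limma adjusted p = 0.402), 0.33 without WT replicate 1, 0.46 without replicate 3 labelled Bach2-cKO and 0.62 after removal of a length and GC trend. Among the members it varied least between WT libraries, with a coefficient of variation of 8.66%.

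*Ascl2* (chr7:142966829-142969264, minus strand), a basic helix-loop-helix factor upstream of *Cxcr5*, was at 265, 339.9 and 523 in WT and at 467, 308 and 401 in the libraries labelled Bach2-cKO. The WT libraries held both the lowest and the highest value, so the groups overlapped fully. Its log2 fold change was 0.10 (limma adjusted p = 0.880, 95% confidence interval -0.59 to 0.78, standard error 0.31), and it was -0.13 without WT replicate 1 and 0.068 without replicate 3 labelled Bach2-cKO. The interval reaches well to both sides of 0.

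**Figure D2:**
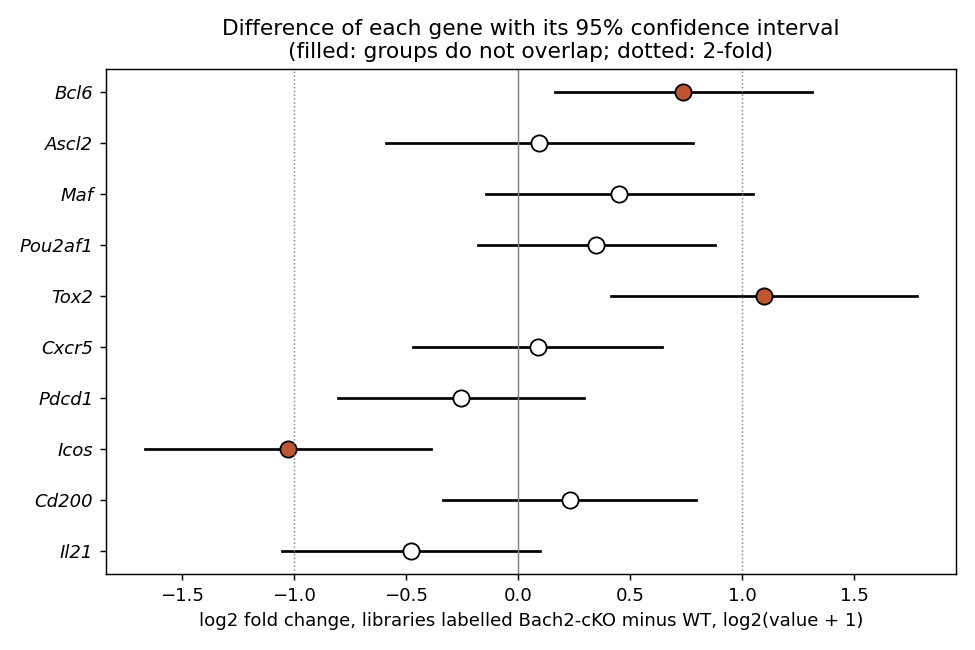
Log2 fold change (horizontal axis, libraries labelled Bach2-cKO minus WT, on log2(value + 1)) of each gene with its 95% confidence interval, filled where the groups do not overlap. The intervals of *Bcl6*, *Tox2* and *Icos* leave out 0, and those of the other 7 genes include it.

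Of the surface receptors, CXCR5 and PD-1 are the proteins the cells were sorted on, so their genes describe cells that all passed the same gate. *Cxcr5*, the receptor for CXCL13, lies at chr9:44511787-44561877 on the minus strand and was at 1613, 1444 and 2039 in WT and at 2028, 1271 and 2207 in the libraries labelled Bach2-cKO. The lowest and the highest value both carried the Bach2-cKO label, and the groups overlapped. Its log2 fold change was 0.087 with a 95% confidence interval of -0.47 to 0.64 (limma adjusted p = 0.864), 0.057 without WT replicate 1 and -0.066 without replicate 3 labelled Bach2-cKO. *Bcl9l*, on the other strand, overlaps the gene, and its own values were small beside it, at 34.3, 33.7 and 21.8 in WT and 140.4, 85.1 and 44.0 in the others.

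*Pdcd1* (chr1:94038305-94052553, minus strand) encodes PD-1, an inhibitory receptor that also keeps Tfh cells within germinal centers. Its values were 2708, 1594 and 2403 in WT and 2159, 1462 and 1927 in the libraries labelled Bach2-cKO. Replicate 2 was the lowest library under either label, and WT replicate 1 was the highest of all. The log2 fold change was -0.26 (95% confidence interval -0.81 to 0.29, limma adjusted p = 0.557), and it was -0.10 without WT replicate 1 and -0.30 without replicate 3 labelled Bach2-cKO. It was -0.48 without WT replicate 2 and -0.0965 without replicate 2 labelled Bach2-cKO.

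*Icos*, the costimulatory receptor that Tfh cells need for their formation and upkeep, lies at chr1:60977927-61000320 on the plus strand. It was at 2547, 4079 and 4953 normalized counts in WT replicates 1, 2 and 3 and at 1675, 1439.9 and 2511 in the replicates labelled Bach2-cKO. Replicates 1 and 2 with that label were far below WT, while replicate 3 lay just under WT replicate 1, the lowest of its group. From 3859 ± 1218 (SD, n = 3) to 1875 ± 563 (SD, n = 3), its log2 fold change was -1.03 (limma adjusted p = 0.146, 95% confidence interval -1.67 to -0.39, standard error 0.29). It was -1.30 without WT replicate 1 (adjusted p = 0.114) and -1.26 without replicate 3 labelled Bach2-cKO (adjusted p = 0.0478), so that the difference was larger without either library. In the other 4 such fits it was smaller, down to -0.82 without WT replicate 3 (adjusted p = 0.273). DESeq2 on 5 libraries gave -1.30 with an adjusted p of 0.00176, edgeR on the same reads -1.27 with 0.148, and library weights -1.58 with 0.000159, within a range of 0.000159 to 0.507 over the alternatives.

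*Icos* has relatives beside it on the chromosome. *Cd28* (chr1:60716800-60773359) and *Ctla4* (chr1:60887000-60915832), which encode the main costimulatory receptor of T cells and its inhibitory counterpart, lie on the same strand, and the 3 genes are the protein-coding genes within 284 kb. *Cd28* was at 1206, 1143 and 1372 in WT and at 585, 529 and 1081 in the libraries labelled Bach2-cKO. *Ctla4* was at 729, 789 and 940.0 and at 621, 602 and 648. As for *Icos*, every library labelled Bach2-cKO was under every WT library, and replicate 3 was the highest with its label for both. The log2 fold changes of *Cd28* and *Ctla4* were -0.83 and -0.38 (limma adjusted p = 0.164 and 0.306), and neither passed. *Ctla4* is also a Treg gene, and *Foxp3*, as given above, was lower in the same libraries. Its part in the values of *Icos* was not tested.

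**Figure D3:**
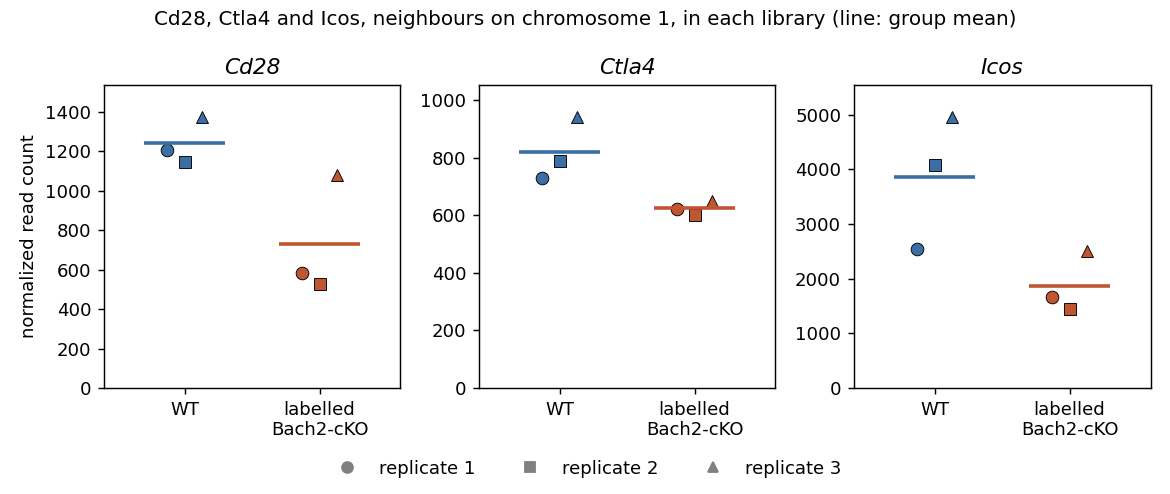
Normalized read count (vertical axes, each from 0) of *Cd28*, *Ctla4* and *Icos* in the 3 WT libraries (blue) and the 3 labelled Bach2-cKO (orange), with group means as lines and replicates told apart by shape. In each panel all libraries labelled Bach2-cKO lie under all WT libraries.

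*Cd200* (chr16:45382135-45409053, minus strand), a surface glycoprotein that marks Tfh cells and engages an inhibitory receptor on myeloid cells, was at 800.4, 1097 and 1511 in WT and at 1137, 1499.6 and 1256 in the libraries labelled Bach2-cKO. The WT libraries spanned the others, and the lowest was again WT replicate 1. Its log2 fold change of 0.23 (limma adjusted p = 0.612) was 0.00150 without that library, 0.46 without WT replicate 3, 0.25 without replicate 3 labelled Bach2-cKO and 0.67 after removal of a length and GC trend.

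*Il21* (chr3:37222759-37232636, minus strand), the cytokine gene of the set, was at 1241, 1343 and 2056 in WT and at 1416, 898 and 997 in the libraries labelled Bach2-cKO. Replicates 2 and 3 with that label were below all WT libraries, and replicate 1 lay among them. From 1547 ± 444 (SD, n = 3) to 1104 ± 275 (SD, n = 3), the log2 fold change was -0.48 (limma adjusted p = 0.311, 95% confidence interval -1.05 to 0.10, standard error 0.26). Without WT replicate 1 it was -0.62, without replicate 3 labelled Bach2-cKO -0.42, and -0.13 after removal of the length and GC trend. Without WT replicate 3, its highest library, it was -0.25. With library weights it was -0.90 (adjusted p = 0.0025, in a range of 0.0025 to 0.819 over the alternatives), short of 2-fold. As for *Maf*, an antisense gene overlaps *Il21*. The *Il21* promoter (chr3:37232587-37232886, minus strand, RefSeq, GRCm38.p6) is shown for its match to the Maf flank, in capitals, which begins 234 bases before the start site.
*Il21* promoter: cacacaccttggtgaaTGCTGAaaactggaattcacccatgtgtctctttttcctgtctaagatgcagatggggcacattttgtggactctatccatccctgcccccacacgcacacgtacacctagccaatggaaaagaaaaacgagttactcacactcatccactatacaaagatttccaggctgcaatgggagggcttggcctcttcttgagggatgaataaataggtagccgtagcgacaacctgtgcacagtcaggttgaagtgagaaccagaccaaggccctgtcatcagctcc
*Il4*, the other cytokine by which Tfh cells help, had the opposite direction, at 656, 911 and 1411 in WT and 2038, 2977 and 2303 in the libraries labelled Bach2-cKO, without overlap (log2 fold change 1.35, limma adjusted p = 0.141).

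Over all genes the difference between the labels ran with transcript length. In the shortest of 4 length classes, with 2820 genes, the median log2 fold change was -0.23 and in the longest, of 2815 genes, 0.44, against a median of 0.082 over all genes tested. The longest transcripts of the members ran from 1605 bases (*Ascl2*) to 6360 (*Maf*). After that trend and one in GC content were removed from each library, *Bcl6* was at 0.56, *Tox2* at 0.95 and *Icos* at -0.80 on the log2 scale. At an unadjusted p under 0.05 limma then had *Bcl6*, *Pou2af1*, *Tox2* and *Cd200* higher and *Icos* lower, against 8.5% and 7.98% of 11264 genes. No member turned its direction there, and the cause of the trend was not tested.

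Levels were compared between genes per kilobase of the longest transcript. In WT the order of the means began with *Icos* at 1191 ± 376 and *Pdcd1* at 1158 ± 298 normalized counts per kb (SD, n = 3), at ranks 629 and 644 of 14693 genes with a known length. This pair did not differ beyond its spread, and both lay above *Cxcr5* in each WT library. *Cxcr5* (597), *Maf* (596), *Il21* (503), *Cd200* (484), *Tox2* (367) and *Ascl2* (234) followed in mean counts per kb, each overlapping the next. *Pou2af1* at 135 lay below *Ascl2* in each WT library and overlapped *Bcl6* at 108, which was last of the 10 at rank 4062. The mRNA of the lineage-defining factor thus had the lowest level per kb of the set in each of the 3 WT libraries.

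In the libraries labelled Bach2-cKO the order differed at its top. *Pdcd1* (958 per kb), *Maf* (815), *Tox2* (756), *Cxcr5* (645), *Icos* (579) and *Cd200* (553) came first, each overlapping the next, followed by *Il21* (359), *Ascl2* (244), *Bcl6* (182) and *Pou2af1* (173). A share of the summed level of the 10 genes does not depend on a library's size factor. By that measure *Icos* made up 17.3%, 25.3% and 23.1% of the sum in WT and 8.68%, 9.75% and 14.7% in the libraries labelled Bach2-cKO. *Tox2* made up 4.66%, 8.61% and 7.0% and then 15.6%, 13.1% and 14.1%. *Bcl6* made up 2.44%, 1.75% and 1.93% and then 3.38%, 4.57% and 2.58%. *Il21*, whose values overlapped, made up 8.89%, 8.80% and 10.1% and then 7.74%, 6.42% and 6.14%. The shares of *Bcl6* and *Tox2* were higher and those of *Icos* and *Il21* lower without overlap, 2 of 10 each way, and those of the other 6 overlapped. Measured against the same sum, 12.7% of 11264 genes were higher and 8.49% lower without overlap. The shares sum to the whole in each library, so that a gene's share also moves with the other members.

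**Figure D4:**
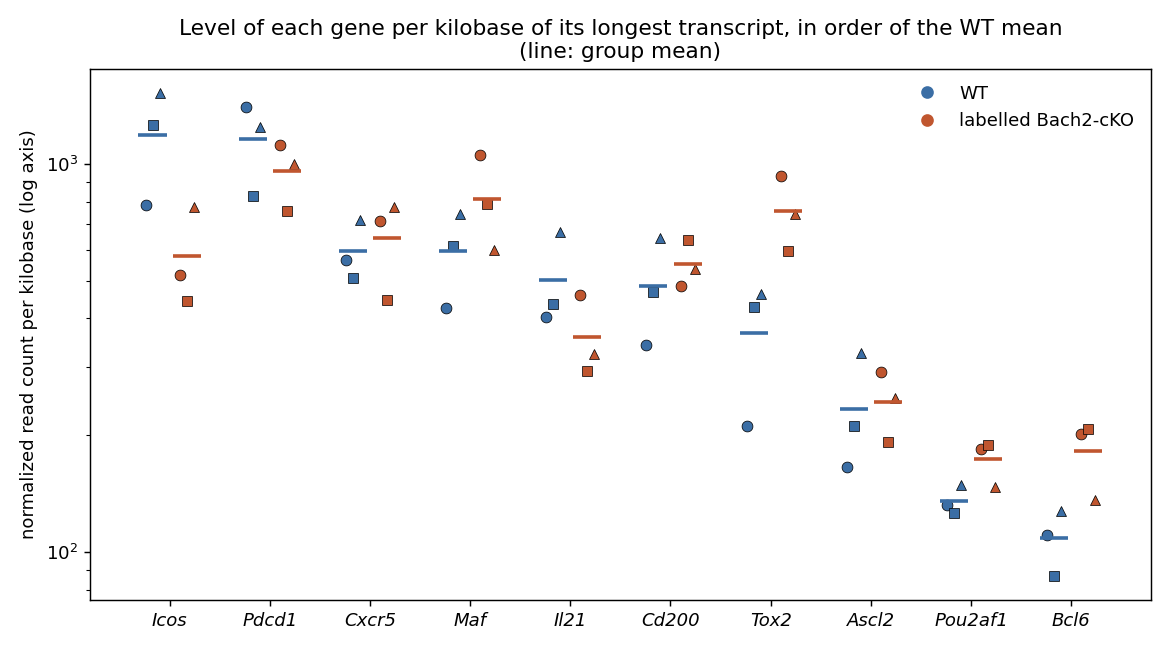
Normalized read count per kilobase of the longest transcript (vertical log axis) of each gene in the WT libraries (blue) and the libraries labelled Bach2-cKO (orange), in order of the WT mean, with group means as lines. *Icos* and *Pdcd1* lead in WT and *Bcl6* is last, and *Icos* lies among *Cxcr5* and *Cd200* in the libraries labelled Bach2-cKO.

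The members were set beside related gene lists. Of the 10 members, 7 had a log2 fold change above 0 and 3 below, with a median of 0.16 where that of all genes was 0.082. Among 28 other Tfh genes, 16 were above 0 and 12 below, with a median of 0.21, and 0 passed an adjusted p of 0.05 in limma. By an unadjusted p under 0.05, 8 were higher and 2 lower, and the same numbers had groups without overlap. Over all genes tested the shares were 10.1% and 10.2% for the first rule, and 14.6% and 12.2% for the second. These counts are a description and no test, since the list was chosen with earlier results of these data known and holds *Il4*. The higher genes with the smallest p were *Il4*, *Cebpa* (41.4, 72.9 and 94.6 against 313, 211 and 179 in WT and in the labelled libraries) and *P2rx7* (575, 648 and 815 against 1252, 1073 and 1130.2), a nucleotide receptor of Tfh cells in the gut. The lower ones were *Batf* (2201, 2183 and 3409.6 against 1528, 1316 and 2037), a factor needed for *Bcl6* expression, *Slamf6* (6957, 8375 and 11196 against 5786, 4987 and 6873) and *Sostdc1* (691, 1079 and 2244 against 709, 767 and 615), of which the last overlapped.

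Of 15 genes that oppose the Tfh fate, 10 were above 0 and 5 below, with a median of 0.13, and 0 passed. At an unadjusted p under 0.05 in limma, 2 were higher (*Bach2*, *Stat5b*), both without overlap, and 1 lower, with overlap. Of all genes tested, 10.1% were higher and 10.2% lower by that rule, and 14.6% and 12.2% were so without overlap. *Bach2*, *Stat5b* (340.1, 295 and 321 against 606, 554 and 453), which carries IL-2 signals that repress *Bcl6*, and *Foxp1* (1145, 1246 and 1157 against 1805, 2141 and 1139) led the higher genes. *Ccr7* (1433, 1148 and 507 against 273, 464 and 609.6), the receptor that holds T cells in the T zone, *Selplg* (3366, 1945 and 1549 against 1169, 1745 and 1788) and *Il2rb* (1429, 711 and 814 against 897, 863 and 538) led the lower ones, each with overlapping groups. Among 7 ligands and receptors of the members, *Il2rg*, the common chain through which IL-21 signals, was at 4171, 3772 and 4360.0 against 1729, 2212 and 2855, lower without overlap (log2 fold change -0.88, limma adjusted p = 0.141). *Cxcl13*, the CXCR5 ligand, was at 169.6, 165 and 96.7 against 34.0, 107 and 111, and of the higher genes *Cd274* was at 177, 356 and 293 against 349, 303 and 318 and *Cd200r1* at 401, 468 and 809 against 594, 661 and 639, all with overlap. *Icosl*, the ICOS ligand, was near its floor in WT replicate 1, at 1.0, 65.1 and 8.32 against 22.2, 33.5 and 14.3, so that it was higher on the log2 scale although its mean was not. The median of this list was 0.19, with 5 genes above 0 and 2 below, and it turned below 0 in 6 of 18 other settings, down to -0.23 in DESeq2.

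Relatives of the members had a median of 0.23 over the 7 that were tested, 5 of them above 0 and 2 below, while *Bcl6b*, *Tox3*, *Mafa* and *Nrl* were not analysed here. That median was -0.026 after removal of a length and GC trend. *Il2* was at 28.3, 70.7 and 21.8 against 94.6, 115 and 59.3, and *Tox*, which like *Tox2* encodes an HMG-box protein, at 1984, 1887 and 2173 against 3324, 2519 and 2156, both with overlap. *Pou2f2*, which encodes an octamer-binding partner of the *Pou2af1* product, was at 343, 245 and 243 against 424, 453 and 261, also with overlap. *Cd28* and *Ctla4* were the lower relatives, as described above.

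Genes most like 4 of the members were found by the root mean square difference of log2 values, each gene centred on its own mean over the 6 libraries, among 7607 genes with a mean of at least 100 normalized counts. For *Bcl6* they were *Rxrb* (0.0734), *Tmem181b-ps* (0.0813) and *Nelfb* (0.0900), for *Cxcr5* *Ddx24* (0.0534), *Kif4* (0.105) and *2700049a03rik* (0.114), for *Icos* *Pop4* (0.125), *Ncoa4* (0.131) and *Dynlt3* (0.134) and for *Il21* *Smpdl3a* (0.110), *Ptpn22* (0.129) and *Phactr2* (0.143), with the difference in log2 units in parentheses. None of these 12 is a member. The member nearest to *Bcl6* was *Pou2af1* at 0.233, and the member nearest to *Icos* was *Il21* at 0.451. *Pop4*, the closest gene to *Icos*, was at 408, 549 and 625 and 214, 191 and 377, and had, like it, its lowest WT value in replicate 1 and its highest labelled value in replicate 3.

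**Figure D5:**
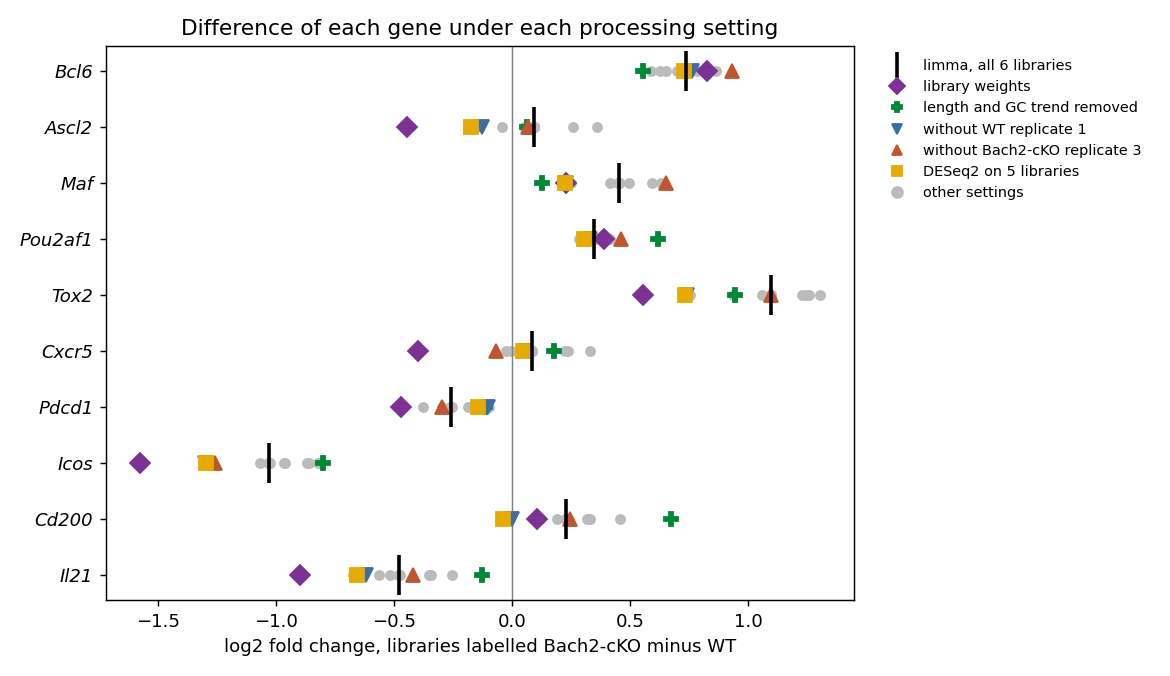
Log2 fold change (horizontal axis, libraries labelled Bach2-cKO minus WT) of each gene in limma on all 6 libraries (black line) and under 18 other settings (points), with 5 of them in colour. *Bcl6*, *Maf*, *Pou2af1* and *Tox2* stay above 0 and *Pdcd1*, *Icos* and *Il21* below 0 in all 18, while *Ascl2*, *Cxcr5* and *Cd200* lie on both sides. The altered filters, the variance trend and the replicate block cannot move the estimate.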

How the data were processed

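Tfh cells were sorted from MLNs and sequenced as 3 WT libraries and 3 labelled Bach2-cKO. The deposited signal, given for 14744 gene symbols, is a normalized read count: the authors divided the counts per gene by a size factor of each library. The paper's methods name Tophat2 for alignment, HTSeq for counting and DESeq2, whereas the submitters' processing notes name STAR 2.5.2b, DESeq, R 3.5.1, DESeq2 1.20.0 and GRCm38 or mm10, with no roles. Which aligner made these values is not settled, and the annotation and strand setting are not given in the sources used here.

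Here limma 3.58.1 (R 4.3.3) compared log2(value + 1) between the labels, with the variance following a trend in level, for the 11296 genes that reached 10 in 3 or more libraries, and p was adjusted over them by the Benjamini-Hochberg method. In each library 100% of values were whole multiples of the smallest positive value, within 0.001. Whole reads were recovered for 5 libraries, 5045131 to 10987752 reads each, and tested with edgeR 4.0.16 and DESeq2 1.42.0. The step of WT replicate 1, 1.01, is too near 1 for the check used on recovered reads, and that library was left out of the count tests. The procedures were tested on simulated data. PCR copies cannot be told apart in these values, so counting errors are lower limits.

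Transcript length, GC content and positions came from GENCODE M21 on GRCm38, where 14329 symbols matched and 364 more by an older symbol. Length is that of the longest transcript. Promoters came from RefSeq (GRCm38.p6).

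The members and lists were chosen with earlier results of these data known, and a few listed genes were not used here. Named genes are every member, *Bach2*, *Il4*, and of each related list (other Tfh genes, genes that oppose the Tfh fate, ligands and receptors, relatives) the 3 higher and the 3 lower genes with the smallest unadjusted p. They are also the most abundant gene of each marker list (T, B, plasma, myeloid and dendritic, CD8 T and NK, stromal and endothelial, Treg and Tfr, naive T cell), any listed gene at 0 in all libraries, and the 3 genes nearest in pattern to *Bcl6*, *Cxcr5*, *Icos* and *Il21*. *Foxp3*, *Cd3e*, *Thy1*, *Cd4*, *Cd44*, *Cd2*, *Dapl1*, *Ms4a1* and *Cd68* as markers, and *Bcl9l* for its overlap, were named after their values were seen. *Lef1*, *Il2ra*, *Ccr7* and *S1pr1* stand in more than 1 list. As alternatives, each library was left out in turn, replicate numbers were used as a block, reads went to both count tools, libraries were weighted, a length and GC trend was taken off, and the threshold, scaling, filter, pseudocount and variance trend were altered.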

Additional observations from a re-analysis of the deposited data

How the results depend on the processing

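Under each alternative run, *Bcl6*, *Maf*, *Pou2af1*, *Tox2*, *Pdcd1*, *Icos* and *Il21* kept the direction of the difference, 18 of 18 settings each, and *Ascl2*, *Cxcr5* and *Cd200* did not. The altered filters, the variance trend and the replicate block change p and not a gene's estimate, so no direction could turn under them. The count of genes called, 0 in limma, became 90 in DESeq2 on 5 libraries (33 higher, 57 lower) and 1128 with library weights (561 higher, 567 lower), and was 0 in the other settings. Of the members, 1 was called in each of these 2 settings, *Icos*, at -1.30 and -1.58 on the log2 scale. The cause was not tested.

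The sign turned for *Ascl2* at -0.44 with library weights, -0.15 in edgeR and -0.17 in DESeq2, for *Cxcr5* at -0.40 with library weights, and for *Cd200* at -0.0099 in edgeR and -0.036 in DESeq2. With single libraries left out, 0 to 0 genes and 0 to 0 members were called. The log2 fold change then ran from -0.13 to 0.36 for *Ascl2* and from -0.066 to 0.33 for *Cxcr5*. It ran from 0.59 to 0.93 for *Bcl6*, from 0.74 to 1.31 for *Tox2* and from -1.30 to -0.82 for *Icos*. For *Maf* it ran from 0.23 to 0.65, for *Pou2af1* from 0.28 to 0.46, for *Pdcd1* from -0.48 to -0.10, for *Cd200* from 0.0015 to 0.46 and for *Il21* from -0.67 to -0.25. Without replicate 3 labelled Bach2-cKO, 507 genes passed an adjusted p of 0.05 in limma, against 0 in each other such fit. The median of the ligands and receptors turned below 0 without WT replicates 1 or 2, without replicate 1 labelled Bach2-cKO, with library weights, in edgeR and in DESeq2, and that of the relatives with a length and GC trend removed. Those of the other 2 lists stayed above 0. Of the list medians under other settings, 10 moved by more than the SD between libraries and 62 by less. For the members' log2 fold changes, 167 of the values kept direction and side of the threshold, 2 passed it and 11 turned. The 167 include values from the settings that cannot move the estimate.

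The labels do not say whether replicate numbers pair the libraries. Over genes, deviations from the group mean in the WT and the labelled library of 1 number had correlations of -0.069, 0.12 and -0.039. With 3 libraries per label these values cannot decide it. With a replicate block limma called 0 genes and 0 members, with an adjusted p of 0.219 for *Icos* and 0.222 for *Tox2*. Each label had 3 libraries. Counting errors are lower limits here, and their part in the spread between libraries was not tested.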
